A study of Mus musculus with 9 samples.

Results

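The naive pluripotency transcription factors are described here as a group of 10 genes, *Nanog*, *Esrrb*, *Tbx3*, *Klf2*, *Klf4*, *Klf5*, *Tfcp2l1*, *Zfp42*, *Prdm14*, and *Nr5a2*. They were chosen by symbol, with earlier results of these data known, and 10 of the 25239 gene symbols in the count files are members. All 10 passed the filter on low counts that left 14125 genes for testing. RNA-seq was performed on E14 mouse embryonic stem cells (ESCs), a line whose strain label reads 12910la, cultured in serum with leukemia inhibitory factor (LIF). The control cells carry the genotype Rbbp4+/+. The Rbbp4Ins/Ins line has a short in-frame insertion on both alleles, which replaces a valine and adds a cysteine, and the Rbbp4Ins/Del line has that insertion on 1 allele and a short in-frame deletion on the other. Each mutant line is a single clone made with CRISPR-Cas9, so a difference from control belongs to that clone, and the mutation cannot be told apart from other differences between clones. Each line has 3 libraries, and as nothing states how separate their cultures were, p-values measure the spread between these libraries, which may be technical.

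Naive pluripotency is the state of the preimplantation epiblast, which mouse ESCs keep in culture as long as LIF and related signals are present. A network of transcription factors holds this state around the core factors encoded by *Pou5f1* and *Sox2*. LIF acts through STAT3 on *Klf4* and *Tfcp2l1*, WNT signals relieve the repression of *Esrrb* by TCF7L1, and FGF signals through ERK drive cells out of the naive state toward the formative and primed states. *Rbbp4* encodes a WD40 protein that binds histones and is shared by PRC2, NuRD, SIN3, and other chromatin complexes.

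Library totals lay between 15838064 and 21366868 counted reads, with scaling factors between 0.993 and 1.02, and no pair of libraries agreed within sampling noise. Values below are normalized counts, in which each library was scaled from its own effective size to the mean of the 9. *Rbbp4* itself read 9932, 9965, and 10117 in the control libraries. It read 5485, 5551, and 5776 in Rbbp4Ins/Ins and 10129, 10344, and 10603 in Rbbp4Ins/Del, a fall of the transcript in the first line only (log2 fold change -0.84, adjusted p = 1.8e-25, against 0.05, adjusted p = 0.107). Genes on the opposite strand overlap 18.05% of the exon bases of *Rbbp4*. As the strand setting of the counting is not given in the sources used here, a part of its reads cannot be assigned. As counts over the whole gene do not read the edited bases, these values do not check the genotypes. By Western blot the authors reported lower levels of the mutant RBBP4 proteins, which RNA counts do not measure.

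Promoter sequences were available for 7 of the 10 members, and 4 of them are shown because *Nanog*, *Zfp42*, and *Tfcp2l1* rose in both mutants and contain matches to motifs of the network's own factors, whereas *Klf2* did not pass the test in either mutant and contains none. Each is the RefSeq sequence (GRCm38) ending 1 base before an annotated start of the gene, read 5′ to 3′ on the gene's strand. The stretches are chr6:122707239-122707488 on the plus strand for *Nanog*, chr8:43307010-43307259 on the minus strand for *Zfp42*, chr1:118627695-118627944 on the plus strand for *Tfcp2l1*, and chr8:72318812-72319032 on the plus strand for *Klf2*. Capitals mark motif matches on either strand.
Nanog: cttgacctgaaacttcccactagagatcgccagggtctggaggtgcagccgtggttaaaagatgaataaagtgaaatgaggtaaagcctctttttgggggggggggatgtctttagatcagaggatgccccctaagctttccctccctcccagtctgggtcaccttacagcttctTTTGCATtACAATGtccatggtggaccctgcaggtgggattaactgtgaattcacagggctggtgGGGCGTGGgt
Zfp42: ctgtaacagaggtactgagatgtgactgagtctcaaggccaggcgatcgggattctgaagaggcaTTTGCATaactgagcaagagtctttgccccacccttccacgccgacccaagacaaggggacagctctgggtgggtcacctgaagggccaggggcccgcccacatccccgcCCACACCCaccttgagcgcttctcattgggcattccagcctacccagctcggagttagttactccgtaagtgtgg
Tfcp2l1: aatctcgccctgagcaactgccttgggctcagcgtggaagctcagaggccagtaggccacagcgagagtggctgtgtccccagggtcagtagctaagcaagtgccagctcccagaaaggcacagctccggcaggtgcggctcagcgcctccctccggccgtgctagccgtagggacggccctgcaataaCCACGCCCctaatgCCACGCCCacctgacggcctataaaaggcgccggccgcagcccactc
Klf2: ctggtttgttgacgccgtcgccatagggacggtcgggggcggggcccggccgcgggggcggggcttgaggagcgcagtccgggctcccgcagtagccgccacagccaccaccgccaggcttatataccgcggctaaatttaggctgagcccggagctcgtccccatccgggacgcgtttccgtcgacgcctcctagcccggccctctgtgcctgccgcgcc

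The capitals in *Nanog* begin with the octamer core TTTGCAT, bound by POU5F1, at position -75 from the upstream one of its RefSeq starts. After 1 more base follows the reverse complement of the SOX core CATTGT at -67, and the 2 together form the composite element for which this promoter is known. At -10 lies the KLF box GGGNGTGG, the kind of sequence bound by the KLF2, KLF4, and KLF5 proteins. In *Zfp42* the octamer core lies at -185 and a KLF box on the opposite strand at -75, and *Tfcp2l1* holds a pair of KLF boxes on the opposite strand at -61 and -47. Over all 32851 RefSeq windows of 300 bases (250 before to 50 after each start), the octamer core occurred in 4.63%, the SOX core in 12.57%, and the KLF box in 17.62%. Of the 10 member windows, some of which overlap, 3 held the octamer core, 3 the SOX core, and 5 the KLF box. The letters AAGGTCA (ESRRB and NR5A2, in 4.72% of all windows), TTCCNGGAA (STAT3, 1.15%), and CTTTGAT (TCF7L1, 3.73%) occurred in none of the 10 member windows. The octamer and SOX cores can share the letters CAT, so a single stretch can match both. The printed promoters were picked by test result and by match, so their contrast with *Klf2* was set by that choice. Matches did not follow the test results gene by gene, since the *Klf4* window, of a factor that rose in both mutants, held none either, and an *Nr5a2* window held a KLF box. *Esrrb*, which rose in both mutants, held only a SOX core, at position 33 after a start. A match is a string of letters and not a site shown to be bound.

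In Rbbp4Ins/Ins, 8 of the 10 factors rose and 0 fell, with 1.33-fold to 3.77-fold higher levels, and the median log2 fold change of the 10 was 0.64 against 0.00 over all tested genes. In Rbbp4Ins/Del, 8 rose and 0 fell, with 1.10-fold to 4.33-fold higher levels, and the median was 0.68 against -0.01. *Tbx3*, *Zfp42*, *Tfcp2l1*, *Klf5*, *Klf4*, *Esrrb*, and *Nanog* rose in both mutants, *Prdm14* in Rbbp4Ins/Ins, and *Nr5a2* in Rbbp4Ins/Del. Calls were widespread in these lines. The test (edgeR quasi-likelihood, Benjamini-Hochberg adjusted p of at most 0.01) called 58.4% of all tested genes in Rbbp4Ins/Ins, 29.0% higher and 29.4% lower, and 62.5% in Rbbp4Ins/Del, 30.6% higher and 31.9% lower. Among all tested genes 25.6% were higher in both mutants, against 7 of the 10 factors. As the factors were chosen with earlier results known, such contrasts, here and below, are a description and not an independent test. Both comparisons use the same 3 control libraries, so the shared calls are not independent of each other. In bulk RNA, more cells that express a factor and more RNA per cell cannot be told apart.

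**Figure D1:**
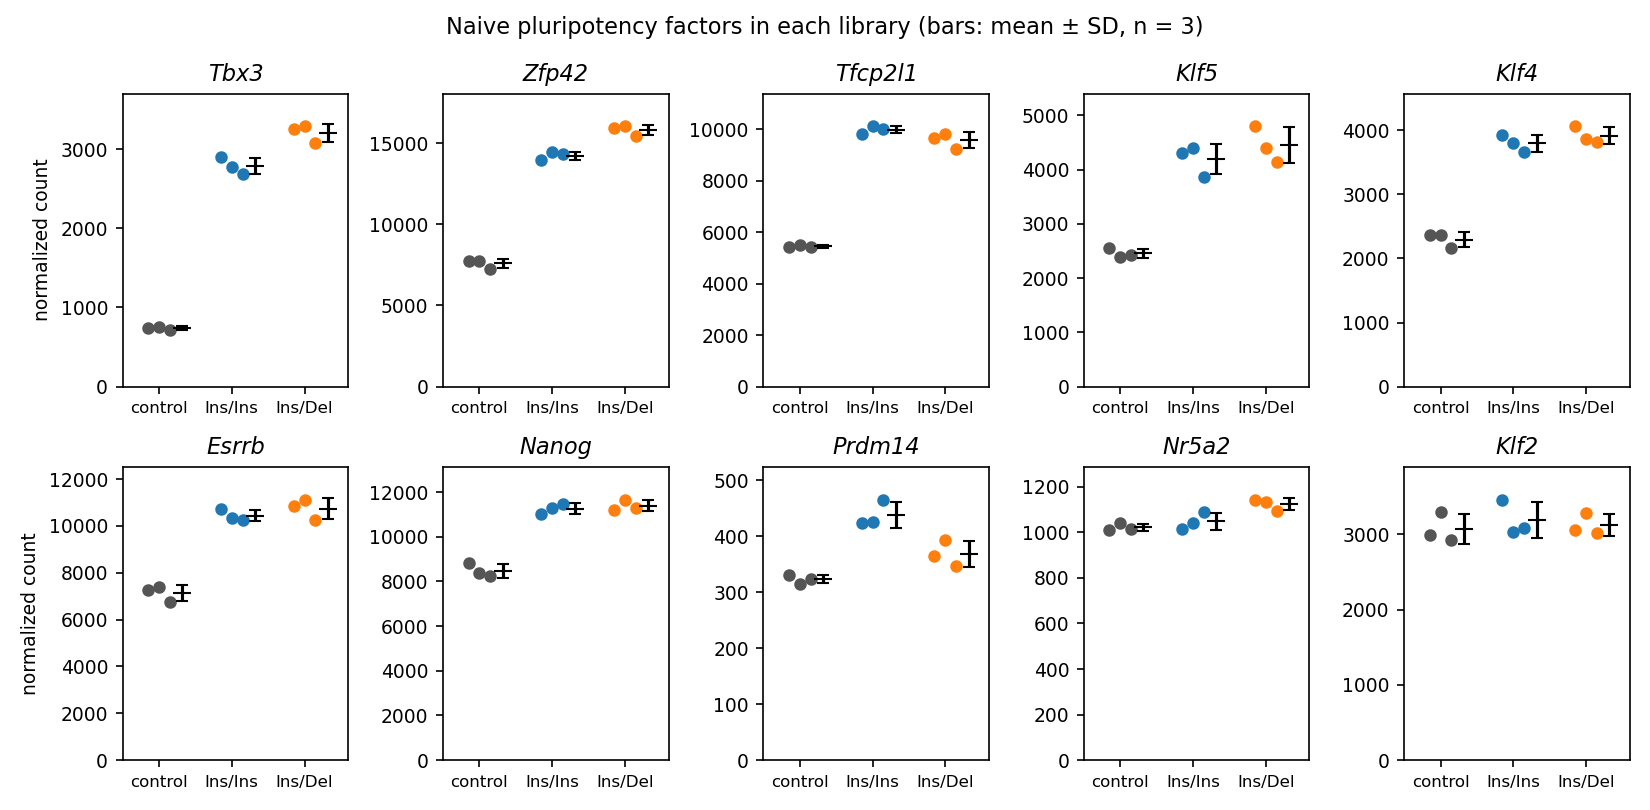
Normalized counts of the 10 naive factors, 1 panel per gene with its own axis; each point is 1 library of the control, Ins/Ins, or Ins/Del line and each bar the mean ± SD of 3. The *Tbx3* points sit between 720.0 and 759.5 in control and above 2690 in both mutants, whereas the *Klf2* points of the 3 lines overlap.

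*Tbx3* (chr5:119670669-119684724, plus strand, GRCm38) encodes a T-box repressor that works downstream of LIF and phosphoinositide signals in ESCs, and it moved most of the 10. The control libraries held 740.4, 759.5, and 720.0 normalized counts, those of Rbbp4Ins/Ins 2898, 2771, and 2690.4, and those of Rbbp4Ins/Del 3252, 3289.8, and 3074. The 3 lines did not overlap. The level was 3.77-fold that of control in Rbbp4Ins/Ins (log2 1.91 ± 0.042 SE, adjusted p = 1.4e-31) and 4.33-fold in Rbbp4Ins/Del (2.12 ± 0.042, adjusted p = 2.6e-33). An antisense gene overlaps 1.74% of the exon bases of *Tbx3*, and as the strand setting of the counting is not given in the sources used here, a small part of these reads cannot be assigned.

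*Zfp42* (chr8:43295063-43306980, minus strand), also called Rex1, encodes a zinc finger protein of the YY1 family and is a widely used reporter of the naive state. Its normalized counts were 7764, 7765, and 7276 in control, 13941, 14425, and 14321 in Rbbp4Ins/Ins, and 15924, 16052, and 15462 in Rbbp4Ins/Del, again 3 separate ranges. Against control, *Zfp42* was 1.87-fold higher in Rbbp4Ins/Ins (log2 0.90 ± 0.029, adjusted p = 1.4e-26) and 2.08-fold higher in Rbbp4Ins/Del (1.06 ± 0.029, adjusted p = 6.3e-29). Of the 50-base windows in its transcripts, 8.52% also occur in transcripts of other genes, among them its pseudogene, so its counts are less certain than those of the other members. Calls with a rise above 2-fold covered 1 of the 10 factors in Rbbp4Ins/Ins, *Tbx3*, against 7.00% of all tested genes, and 2 of the 10 in Rbbp4Ins/Del, *Tbx3* and *Zfp42*, against 8.45%.

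*Tfcp2l1* (chr1:118627945-118685168, plus strand) encodes a CP2 family factor that is a direct target of STAT3 and is able to sustain self-renewal without LIF when supplied in excess. The 3 control libraries lay close together at 5439, 5516, and 5418 normalized counts, below 9834, 10123, and 9995 in Rbbp4Ins/Ins and 9678, 9832, and 9240.1 in Rbbp4Ins/Del. It rose 1.83-fold in the former (log2 0.87 ± 0.029, adjusted p = 5.3e-26) and 1.76-fold in the latter (0.81 ± 0.029, adjusted p = 4.2e-25).

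The 3 Krüppel-like factors did not move alike. *Klf4* (chr4:55527143-55532466, minus strand), a STAT3 target and reprogramming factor, read 2360.4, 2359, and 2159 in control, 3920.1, 3801, and 3659 in Rbbp4Ins/Ins, and 4064, 3856, and 3822 in Rbbp4Ins/Del. It rose 1.65-fold and 1.71-fold (log2 0.73 ± 0.037, adjusted p = 5.2e-20, and 0.77 ± 0.037, adjusted p = 5.7e-21). *Klf5* (chr14:99298691-99315036, plus strand), needed for the inner cell mass and trophectoderm of the embryo, read 2554, 2394, and 2425 in control, 4313, 4391, and 3869 in Rbbp4Ins/Ins, and 4802, 4393, and 4144 in Rbbp4Ins/Del. It rose 1.70-fold and 1.81-fold (log2 0.77 ± 0.043, adjusted p = 1.2e-18, and 0.85 ± 0.043, adjusted p = 3.0e-20).

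*Klf2* (chr8:72319033-72321656, plus strand), the member of the trio that ERK signalling is known to destabilize at the protein level, read 2990.5, 3301, and 2925 in control. Its libraries held 3462, 3031, and 3082 in Rbbp4Ins/Ins and 3058, 3288, and 3019.9 in Rbbp4Ins/Del, so the 3 lines overlapped. Neither difference passed the test, at log2 0.06 (95% interval -0.03 to 0.15, adjusted p = 0.223) and 0.03 (-0.06 to 0.11, adjusted p = 0.609). The intervals leave out a change as large as that of any of the 7 factors that rose in both lines. Among the 10 factors the spread of *Klf2* between libraries of a line was on the high side, with a coefficient of variation of 6.53% in control, 7.39% in Rbbp4Ins/Ins, and 4.65% in Rbbp4Ins/Del.

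*Nanog* (chr6:122707489-122714633, plus strand) encodes the homeodomain factor that protects self-renewal when LIF is limiting. The control libraries held 8810.0, 8357, and 8232 normalized counts, Rbbp4Ins/Ins 11007, 11301, and 11476, and Rbbp4Ins/Del 11219, 11664, and 11285. Both mutants lay above control without overlap, by 33.0% (log2 0.41 ± 0.029, adjusted p = 1.6e-15) and 34.5% (0.43 ± 0.029, adjusted p = 3.8e-16). These were the smallest rises among the 7 factors called in both lines. Other genes' transcripts, including the pseudogene *Nanog-ps1*, share 4.61% of its 50-base windows.

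*Esrrb* (chr12:86361117-86521628, plus strand) encodes an orphan nuclear receptor that is a target of NANOG and of relief from TCF7L1. It read 7276, 7374, and 6755 in control, 10701, 10333, and 10258 in Rbbp4Ins/Ins, and 10841, 11123, and 10235 in Rbbp4Ins/Del. The mutants were 1.46-fold (log2 0.55 ± 0.032, adjusted p = 5.6e-18) and 1.50-fold (0.59 ± 0.032, adjusted p = 4.5e-19) higher, and neither overlapped control.

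*Nr5a2* (chr1:136842571-136960448, minus strand), which encodes the orphan receptor LRH-1, changed little. It read 1010.5, 1040.2, and 1014 in control, 1016, 1039, and 1089 in Rbbp4Ins/Ins, and 1144, 1134, and 1093 in Rbbp4Ins/Del. The first difference did not pass the test (log2 0.04, 95% interval -0.06 to 0.13, adjusted p = 0.506), and the second was a 9.99% rise that did (0.14 ± 0.046, adjusted p = 0.00729). That call was lost with DESeq2 (adjusted p = 0.0175), and its adjusted p was 0.0294 without Rbbp4Ins/Del replicate 1, 0.027 without Rbbp4Ins/Del replicate 2, 0.0284 without control replicate 1, and 0.0123 without control replicate 3.

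*Prdm14* (chr1:13113457-13127163, minus strand) encodes a PR domain protein that represses the de novo DNA methyltransferases and FGF receptor signalling in naive cells. It was the least counted member, with 330.0, 315, and 324 normalized counts in control, 422, 425, and 465 in Rbbp4Ins/Ins, and 365, 392, and 346 in Rbbp4Ins/Del. It rose by 35.5% in Rbbp4Ins/Ins (log2 0.44 ± 0.072, adjusted p = 1.7e-06). In Rbbp4Ins/Del every library also lay above every control library, but the difference of 0.19 (95% interval 0.04 to 0.34) had an adjusted p of 0.0213 and was not called. Counted by overlap in place of the test, every library was above every control library for 8 of the 10 factors in Rbbp4Ins/Ins and 9 of the 10 in Rbbp4Ins/Del, against 34.9% and 35.9% of all tested genes.

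**Figure D2:**
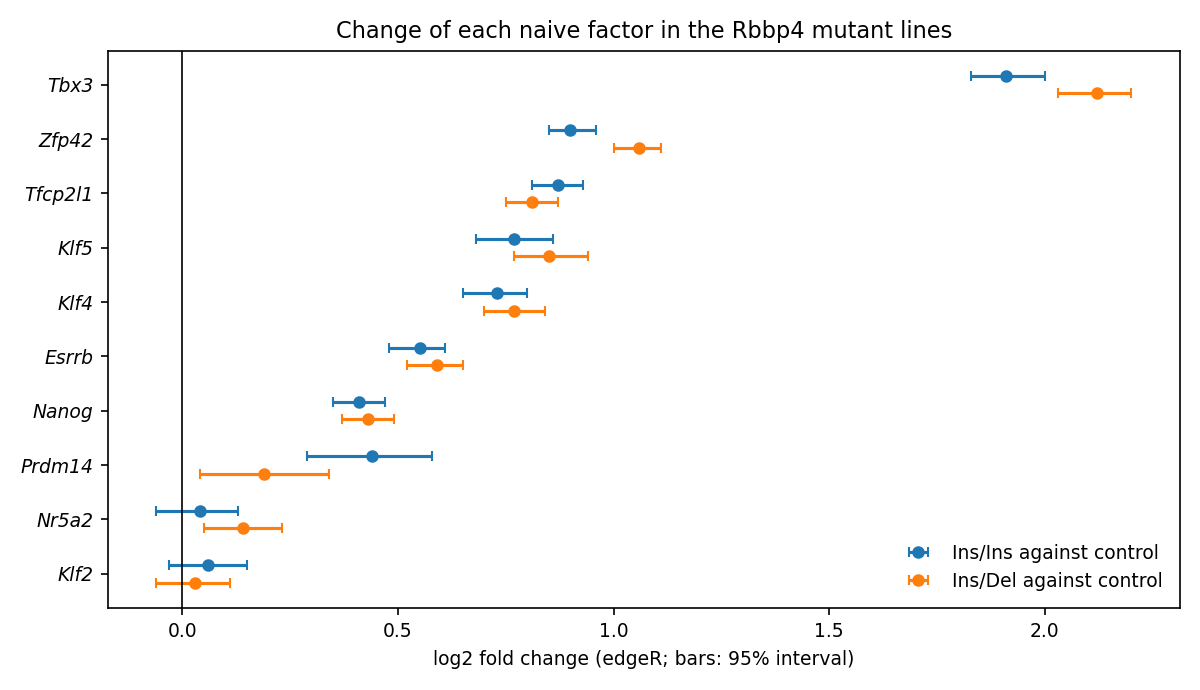
Log2 fold changes of the 10 naive factors against control in both mutants, with 95% intervals from the edgeR fit on the horizontal axis. *Tbx3* stands apart near 2, the intervals of *Klf2* cross 0 in both lines, and those of *Nr5a2* cross 0 in Ins/Ins.

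The difference between the mutants was tested directly. Of the 10 factors, 2 were higher in Rbbp4Ins/Del than in Rbbp4Ins/Ins and 0 lower, where 10.8% of all tested genes were called, 6.17% higher and 4.64% lower (edgeR, Benjamini-Hochberg adjusted). *Tbx3* was 15.0% higher (log2 0.20, 95% interval 0.13 to 0.27, adjusted p = 5.6e-05), and *Zfp42* 11.1% higher (0.15, 0.10 to 0.21, adjusted p = 9.9e-05). Both had separate ranges of libraries in the 2 lines. *Tfcp2l1*, *Nr5a2*, and *Prdm14* had separate ranges too. The share of all tested genes with separate ranges between the mutants was not counted, so nothing is read from these separations. For *Prdm14*, lower in Rbbp4Ins/Del, the difference of -0.24 (-0.39 to -0.10, adjusted p = 0.012) missed the threshold. For *Nanog*, *Esrrb*, *Klf2*, and *Klf4* the intervals lay within -0.12 and 0.12, so a difference between the lines above that size lies outside them. The intervals of *Klf5* (0.00 to 0.17), *Tfcp2l1* (-0.12 to -0.00), and *Nr5a2* (0.01 to 0.20) reach or exclude 0 without an adjusted p under the threshold (0.146, 0.15, and 0.115).

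Levels of different genes were compared per kilobase of annotated exon (GENCODE M21), which is approximate because the annotation used for counting is not given in the sources used here. In control, *Zfp42* (4041 ± 150 normalized counts per kilobase, SD, n = 3) and *Nanog* (3776 ± 136) were highest, and their libraries overlapped. *Klf2* followed at 1663, then *Esrrb* at 1180.0, *Klf4* at 752, *Tfcp2l1* at 578, *Klf5* at 473, *Nr5a2* at 173, *Prdm14* at 126, and *Tbx3* last at 112, each separate from its neighbours. In the mutants *Zfp42* stayed first and *Nanog* second. *Zfp42*, at 7564 ± 136 in Rbbp4Ins/Ins and 8406 ± 165 in Rbbp4Ins/Del, no longer overlapped *Nanog*, at 5023 ± 106 and 5080.0 ± 107. *Esrrb* and *Klf2* could no longer be ranked, at 1725 against 1728 in Rbbp4Ins/Ins and 1775 against 1690.2 in Rbbp4Ins/Del, with overlapping libraries in both. *Tbx3*, in 10th place in control, stood in 8th place at 421 ± 15.8 and 484 ± 17.4, above *Nr5a2* (178 and 190.5) and *Prdm14* (171 and 143), and this was the change of order that overlapping libraries did not blur. *Nr5a2* and *Prdm14* overlapped in Rbbp4Ins/Ins only. Summed over the 10 genes, the level per kilobase was 12874 ± 415 in control, 19917 ± 58.3 in Rbbp4Ins/Ins, and 20923 ± 485 in Rbbp4Ins/Del. *Zfp42* and *Nanog* together made up most of each sum and most of its rise.

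**Figure D3:**
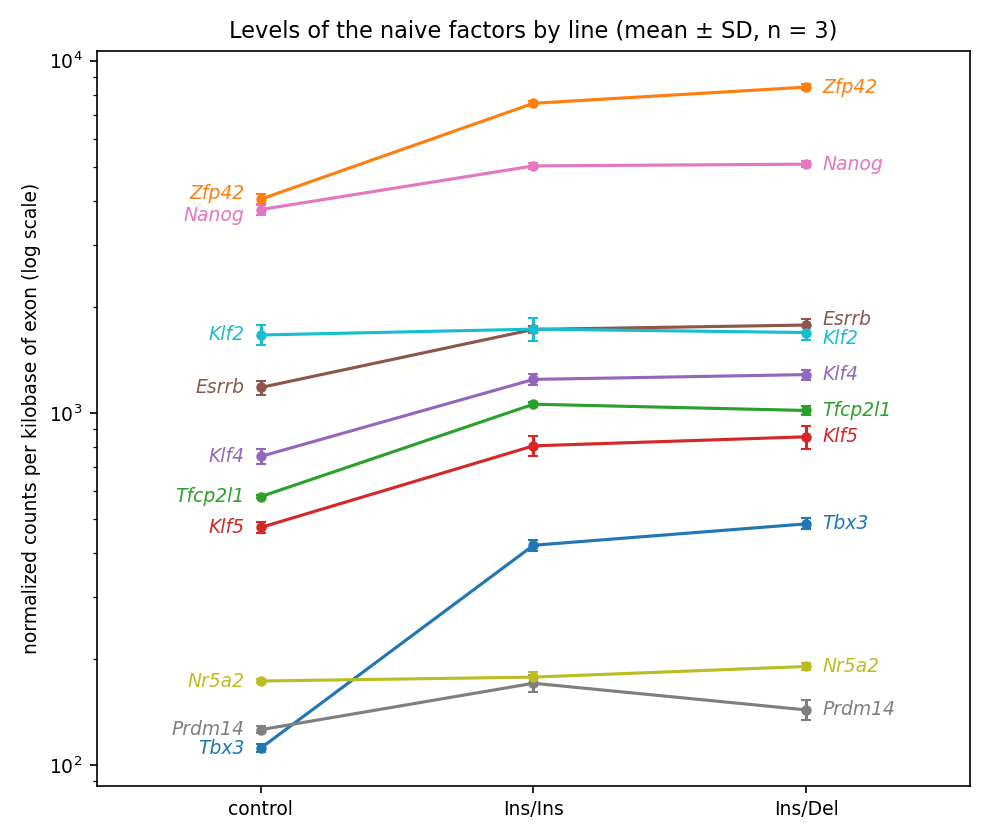
Mean level of each naive factor in normalized counts per kilobase of exon (log axis) in the 3 lines, with bars for the SD over 3 libraries. *Tbx3* climbs from the lowest line of the plot at 112 to 484, and the libraries of *Esrrb* and *Klf2* overlap in both mutants.

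The genes whose pattern over the 9 libraries lay nearest to that of *Tbx3*, by Euclidean distance of log2 normalized counts centred on the control mean among 12712 genes, were *Gm13119* (distance 0.191), *Adap1* (0.241), and *Reep1* (0.243). Their log2 fold changes were 1.96, 1.80, and 1.87 in Rbbp4Ins/Ins and 2.10, 2.09, and 2.21 in Rbbp4Ins/Del. Nearest to *Klf2* were *Srebf1* (0.101), *Wdr74* (0.108), and *Desi1* (0.116), whose fold changes lay between 0.00 and 0.08.

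The signals that feed the network were read from lists of its known inputs. For the counts in this and the following lists, the shares over all tested genes were 29.0% higher and 29.4% lower in Rbbp4Ins/Ins. In Rbbp4Ins/Del they were 30.6% higher and 31.9% lower. Of 8 genes of LIF and STAT3 signalling, 1 rose and 5 fell in Rbbp4Ins/Ins (median log2 -0.17) and 1 rose and 4 fell in Rbbp4Ins/Del (-0.11). *Lifr*, the LIF receptor, rose (0.50 and 0.70), whereas *Il6st*, its signalling partner gp130, fell (-0.20 and -0.41), as did *Pim1* (-0.51 and -0.58) and *Gbx2* (-1.70 and -1.33), both known STAT3 targets. *Socs3*, the feedback inhibitor that STAT3 induces, did not pass the test (0.03 and 0.08, adjusted p = 0.458 and 0.0503), and was named after its values were seen. The known STAT3 targets therefore split, with *Klf4* and *Tfcp2l1* higher and *Pim1* and *Gbx2* lower in both mutants.

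Of 14 genes of WNT, ERK, and BMP signalling, 3 rose and 9 fell in Rbbp4Ins/Ins (median -0.37) and 4 rose and 5 fell in Rbbp4Ins/Del (-0.09). The receptor *Fgfr2* (-0.89 and -1.41) and the ERK feedback genes *Spry2* (-0.92 and -0.87) and *Dusp6* (-0.95 and -0.79) fell in both lines. A further feedback gene of the list, *Spry4*, named after its values were seen, fell in Rbbp4Ins/Ins only (-0.62). In Rbbp4Ins/Del it did not pass the edgeR test (-0.08, adjusted p = 0.0505). *Fgf4*, the ligand that ESCs make themselves, rose (0.52 and 0.64). Among 9 partners of the core network, 4 rose and 3 fell in Rbbp4Ins/Ins (median 0.02) and 4 rose and 2 fell in Rbbp4Ins/Del (0.06). *Tcl1*, a coactivator of AKT (1.37 and 1.20), and *Nr0b1*, which encodes DAX1 (0.57 and 0.55), rose, while *Mycn* (-1.26 and -1.76) and *Utf1* (-0.48 and -0.72) fell. The core factor genes *Pou5f1* and *Sox2* were named after their values were seen. *Pou5f1* read 18059 ± 717 in control, 16615 ± 31.2 in Rbbp4Ins/Ins, and 17668 ± 287 in Rbbp4Ins/Del. It fell by 0.12 on the log2 scale in the former (adjusted p = 0.0002) and did not pass the test in the latter (-0.03, adjusted p = 0.303). *Sox2* read 11399 ± 189, 12395 ± 234, and 11536 ± 262, a rise of 0.12 in Rbbp4Ins/Ins (adjusted p = 0.00019) and a difference in Rbbp4Ins/Del that did not pass the test (0.02, adjusted p = 0.591).

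Of 15 further genes tied to the naive state, 9 rose and 5 fell in Rbbp4Ins/Ins (median 0.25) and 10 rose and 5 fell in Rbbp4Ins/Del (0.30). The adhesion genes *Jam2* (1.35 and 1.69) and *Pecam1* (0.97 and 0.81) and the lysosomal enzyme gene *Manba* (0.80 and 1.21) rose. *Tdh*, the threonine dehydrogenase on which mouse ESC metabolism depends, went the other way, from 4834 ± 182 normalized counts in control to 1759 ± 51.7 and 1748 ± 69.4 (-1.46 and -1.47). The other genes of this list that fell in both lines were *Dppa3* (-0.28 and -1.21), *Gdf3* (-0.51 and -0.49), *Zscan10* (-0.24 and -0.27), and *Dppa4* (-0.19 and -0.16). The list did not move one way.

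Of 14 formative and primed genes, which mark the states that follow the naive one, 2 rose and 10 fell in Rbbp4Ins/Ins (median -1.46) and 3 rose and 10 fell in Rbbp4Ins/Del (-1.25). *Fgf5*, the classical postimplantation epiblast marker, went from 213 ± 4.1 normalized counts to 15.6 ± 0.743 and 8.14 ± 1.74 (-3.75 and -4.69). *Pou3f1*, encoding OCT6, went from 1660.2 ± 96.4 to 164 ± 15.1 and 130.5 ± 22.5 (-3.33 and -3.68), and *Cdh2*, encoding N-cadherin, fell by 4.01 in both lines. *Fgf15* fell as well (-3.00 and -2.99). The genes of this list that rose were *Etv4*, an ETS factor (1.23 and 1.72), and *Dnmt3l*, the cofactor of the de novo DNA methyltransferases (0.88 and 1.24), in both lines, and *Lef1*, a nuclear partner of beta-catenin, in Rbbp4Ins/Del (0.38).

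**Figure D4:**
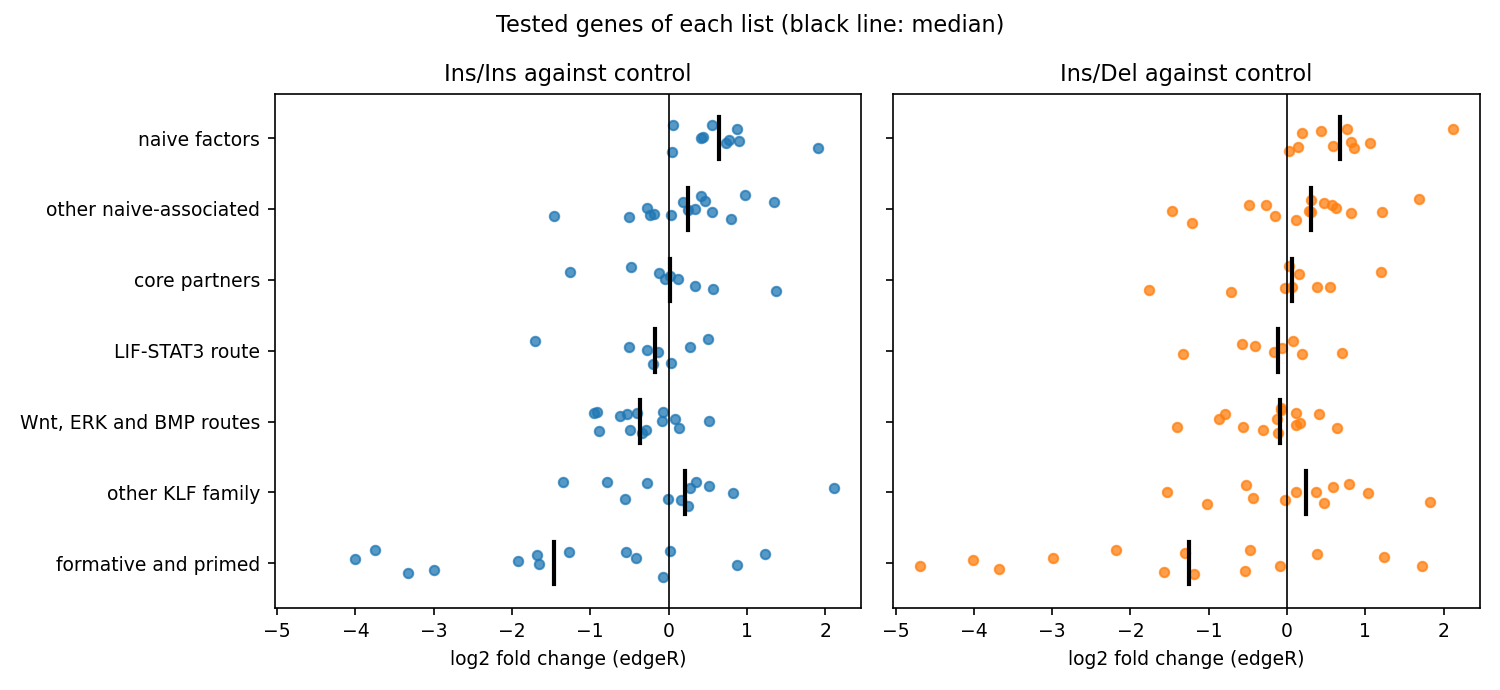
Log2 fold change against control of every tested gene in the naive factor list and the lists around it, 1 panel per mutant and 1 row per list; each point is a gene and each bar a median. The naive factor rows have medians of 0.64 and 0.68 and the formative and primed rows -1.46 and -1.25.

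Relatives of the members in sequence showed both directions. Of the other Krüppel-like factors, 12 of 14 were tested, and 7 rose and 4 fell in Rbbp4Ins/Ins (median 0.20) and 6 rose and 4 fell in Rbbp4Ins/Del (0.24). *Klf8* (0.82 and 1.03) rose, and *Klf6* (-1.35 and -1.53) and *Klf7* (-0.78 and -1.02) fell. Of 26 relatives of the remaining members, 17 were tested, and 5 rose and 6 fell in Rbbp4Ins/Ins and 6 rose and 7 fell in Rbbp4Ins/Del. Over all tested genes 29.0% rose and 29.4% fell in the former, and 30.6% rose and 31.9% fell in the latter. The counts of these 17 lie near those shares. The receptor gene *Esrra*, a relative of *Esrrb*, rose (0.62 and 0.73), as did the grainyhead gene *Grhl3*, a relative of *Tfcp2l1* (0.59 and 0.54). Of the T-box relatives of *Tbx3*, *Eomes* was higher (0.74 and 0.49) and *Tbx20* lower (-2.80 and -3.00).

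Markers of ESCs and of other cell types moved with the lines as well. Beside the counts below, 29.0% of all tested genes rose and 29.4% fell in Rbbp4Ins/Ins, and 30.6% rose and 31.9% fell in Rbbp4Ins/Del. The summed level of 10 ESC markers was 103064 to 105273 normalized counts in control, 100652 to 101977 in Rbbp4Ins/Ins, and 104454 to 105220 in Rbbp4Ins/Del, so the labelled cell type showed its defining genes in every library, and none was at 0. The sums hide moves in both directions, since 5 of the 10 rose and 4 fell in Rbbp4Ins/Ins, and 4 rose and 3 fell in Rbbp4Ins/Del. Within this list *Lin28a* fell (-1.43 and -1.55) and *Fbxo15* rose (0.56 and 0.47). Of 12 fibroblast markers, 8 were tested, and 2 rose and 6 fell in Rbbp4Ins/Ins and 1 rose and 6 fell in Rbbp4Ins/Del. *Fn1* made up most of their sum (30314 to 31276 in control, 30473 to 30867, and 26455 to 28273), and the other 11 summed to 3420 to 3715 in control, 377 to 420 in Rbbp4Ins/Ins, and 414 to 466 in Rbbp4Ins/Del, a sum added after the values were seen. *Acta2* (-5.87 and -5.98), *Tagln* (-4.77 and -5.96), *Col1a2* (-5.28 and -4.76), and *Col1a1* (-4.04 and -3.55), genes of smooth muscle and collagen, fell in both lines. *Thy1*, a surface antigen gene named after its values were seen, rose from 45.7 normalized counts to 246 and 312 (2.43 and 2.77) and made up most of the mutant sums without *Fn1*.

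Of 8 neural markers, 6 were tested, and 1 rose and 3 fell in each mutant, with sums of 3402 to 3485 in control, 1460 to 1594 in Rbbp4Ins/Ins, and 1788 to 1831 in Rbbp4Ins/Del. *Pax6* (-3.19 and -4.50) and *Nes* (-2.93 and -3.08) fell, while *Tubb3* rose (1.04 and 1.46). Of 10 trophectoderm markers, 9 were tested, with 4 higher and 4 lower in Rbbp4Ins/Ins and 3 higher and 5 lower in Rbbp4Ins/Del (sums 5132 to 5662, 3104 to 3287, and 2260 to 2356). The keratin genes *Krt8* (-2.69 and -3.00) and *Krt18* (-2.45 and -2.98) fell, while the transcription factor genes *Ascl2* (0.98 and 1.31), *Tead4* (0.73 and 0.66), and *Eomes* (0.74 and 0.49) rose. Other transcription factor genes of this list, named after their values were seen, went down in at least 1 line. *Cdx2* fell from 30.1 normalized counts to 2.4 and 2.5 (-3.60 and -3.58). *Gata3* fell in Rbbp4Ins/Ins (-0.90) and *Hand1* in Rbbp4Ins/Del (-1.07), while *Tfap2c* rose in the former (0.48) and fell in the latter (-0.21). Without the keratin pair, a split added after the values were seen, the other 8 summed to 1771 to 1875 in control, 2512 to 2634 in Rbbp4Ins/Ins, and 1792 to 1943 in Rbbp4Ins/Del. *Tfap2c* made up most of these sums, with means of 1260, 1763, and 1086. Of 10 primitive endoderm markers, 9 were tested, with 2 higher and 3 lower in Rbbp4Ins/Ins and 7 higher and 2 lower in Rbbp4Ins/Del (sums 2762 to 3029, 2628 to 2818, and 3782 to 3876). *Hnf4a* rose from 4.19 to 56.3 and 67.8 normalized counts, whereas *Gata4* fell (-1.56 and -1.05). *Lama1* (means of 1398, 1484, and 2013) and *Col4a1* (1138.5, 919, and 1415), named after their values were seen, made up most of the primitive endoderm sums. Of 8 mesoderm markers, 6 were tested, with 1 higher and 3 lower in each mutant (sums 302 to 341, 351 to 384, and 294 to 312). *Eomes* made up most of these sums, with means of 193, 322, and 271. *T*, named after its values were seen, fell from 44.6 normalized counts to 2.34 and 0.301 (-4.17 and -6.58). None of these marker lists had a gene at 0 in every library. Control libraries thus had higher sums of the neural markers, of the keratin pair, and of the fibroblast markers other than *Fn1* than the mutant libraries, although each of these marker lists held at least 1 gene that rose. Other sums went the other way. Primitive endoderm markers had their highest sums in Rbbp4Ins/Del, and mesoderm markers and the trophectoderm markers without the keratin pair had theirs in Rbbp4Ins/Ins. The part of any such cells in the differences of the naive factors was not tested.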

How the data were processed

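The authors deposited whole-number counts per gene symbol for each of the 9 libraries. Total RNA was taken through the Kapa mRNA HyperPrep kit and sequenced as paired ends of 50 bp, and the authors aligned reads to mm10 with STAR 2.7.3 and counted them with HTSeq. The HTSeq version, annotation, and strand setting are not given in the sources used here, so reads of overlapping or near-identical genes carry an uncertainty. The authors' own test was DESeq2 1.22.2 at an adjusted p of at most 0.01.

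Here, edgeR 4.0.16 (R 4.3.3) was run with TMM scaling, the filterByExpr filter, and the quasi-likelihood functions glmQLFit and glmQLFTest on 1 model of the 9 libraries by line, without covariates. Benjamini-Hochberg adjustment ran over 14125 genes, and a gene was called at 0.01. A standard error is the size of the log2 fold change over the square root of its F statistic, and 95% intervals use it. Groups follow the genotype labels. Summaries used Python 3.11.15 and pandas 2.3.3. Positions and exon lengths are from GENCODE M21, promoters from RefSeq on GRCm38. The scripts were tested on simulated data.

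The members and lists were chosen with earlier results of these data known. All 10 members are named. From each other list at most the 4 genes called in both mutants with the largest mean change and a mean above 20 normalized counts were taken for naming, and those named outside this rule are either said to be so or stand as the members of a list that moved against its name. For the members with the highest and lowest mean change, the 3 nearest genes are given. Alternatives were DESeq2 1.42.0, its size factors, total count scaling, no filter, 2 groups only, a replicate block, thresholds of 0.05 and of 2-fold, and each library left out.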

Additional observations from a re-analysis of the deposited data

Results flagged for a closer look

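For 2 of the 10 factors the change against control differed between the mutant lines when that difference was tested itself (edgeR, Benjamini-Hochberg adjusted over all tested genes). *Tbx3* was higher in Rbbp4Ins/Del than in Rbbp4Ins/Ins by 0.20 on the log2 scale (adjusted p = 5.6e-05), with 3 of 3 libraries of the one above 3 of 3 of the other. *Zfp42* was higher by 0.15 (adjusted p = 9.9e-05), likewise in 3 of 3 libraries. Each line is 1 clone, so the alleles and the clones cannot be told apart.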

How the results depend on the processing

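All 10 log2 fold changes of Rbbp4Ins/Ins against control kept their direction and their side of the threshold under all 15 alternatives that give such a value, as did 8 of 10 in Rbbp4Ins/Del and 7 of 10 between the mutants. The number of factors called, 8, 8, and 2 in the 3 comparisons, dropped to 1, 1, and 0 when a change had to exceed 2-fold by test. At an adjusted p of 0.05 it was 8, 9, and 3. The call of *Nr5a2* in Rbbp4Ins/Del was also lost with total count scaling (log2 0.12, adjusted p = 0.017) and without the filter on low counts (0.14, adjusted p = 0.0103). *Prdm14* between the mutants passed in a fit of these 2 lines alone (-0.24, adjusted p = 0.00994). Leaving out each library in turn, differences near 0 changed sign for *Klf2* in Rbbp4Ins/Del (-0.01 to 0.09, negative without its replicate 2), for *Nanog* between the mutants (-0.00 to 0.03, negative without Rbbp4Ins/Del replicate 2), and for *Klf2* between the mutants (-0.07 to 0.03, positive without Rbbp4Ins/Ins replicate 1). None of these passed the test in either form. Over tested genes with a mean above 20 normalized counts, same-numbered libraries of different lines did not deviate together (correlations of deviations from the group means between -0.0382 and 0.0332). No pairing by number was thus seen over these genes, and pairing at the 10 factors alone was not tested. With the replicate block 8, 8, and 2 factors were called. Precision was limited most for *Prdm14*, the least counted factor, whose standard errors of 0.071 to 0.074 were the largest.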
